A study of Mus musculus musculus x Mus musculus castaneus with 7 samples.

Results

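The SSEA1-positive Day 15 library of a fibroblast reprogramming series was compared with the Day 2 library, 1 library each, 2 of the 7 libraries sequenced. Of the 24393 genes in the table, 14470 were kept, those whose higher value in these libraries was at least 6 on the deposited log2 scale, 64 normalized counts. The starting cells were female mouse embryonic fibroblasts from a Mus musculus musculus x Mus musculus castaneus cross. They carried an X-linked GFP transgene and were sorted into a population with GFP on either the active or the inactive X. The fibroblasts received lentiviral tetO-FUW-OSKM, which encodes Oct4 (Pou5f1), Sox2, Klf4 and Myc under a doxycycline-responsive promoter, together with the FUW-M2rtTA activator. From induction on, both groups were kept in serum-containing ESC medium with LIF, ascorbic acid and 2 µg/ml doxycycline, refreshed throughout the experiment. The Day 2 label names no sort, whereas the Day 15 cells were sorted for SSEA1, a carbohydrate on the surface of pluripotent mouse cells. Time in culture and the sort therefore cannot be told apart in the difference between the libraries. SSEA1-positive intermediates of Days 8, 10 and 13 were used for the course between the endpoints. Female SSEA1+/GFP+ iPSCs, grown from picked colonies after withdrawal of doxycycline and ascorbic acid, and SSEA1+/GFP+ ESCs of the line labelled F121 served as reference for pluripotent cells. The labels do not say how many cultures or animals entered a library.

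Cultured embryonic fibroblasts are mesenchymal cells that secrete fibrillar collagen and fibronectin matrix, pull on it with actomyosin stress fibres, and keep a record of their place in the body in their Hox and other homeobox genes. Serum growth, stiff plastic and TGF-beta signalling push them toward a myofibroblast state, in which SRF with its cofactors and YAP with TEAD factors drive smooth muscle actin, matrix and cytokine genes. Reprogramming by the 4 factors silences the mesenchymal program, passes through an epithelial state and ends with the pluripotency network switched on. The comparison asks which genes of the early, fibroblast-like population were still, or again, at their early level in SSEA1-positive cells late in the process, and which stayed down.

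With 1 library per group there is no replicate spread and no test. Folds are ratios of normalized counts. The range in brackets after a fold is a 95% Clopper-Pearson interval from the read numbers and covers counting error only. A gene without a read was set to a floor of 3 reads, 2.74 normalized counts at Day 2 and 1.74 at Day 15, and its fold is written as "at least". A gene is called lower or higher when its log2 values differed by 2 or more, 4-fold, and within 1 when they differed by at most 1, 2-fold. Values are log2 normalized counts unless another unit is named. They are not divided by gene length, so levels are compared between libraries and not between genes.

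The Day 2 library held 49549757 reads in genes, the Day 15 library 57021069, and the other 5 between 15370903 and 42899719. At Day 2, 16336 genes had a read, against 21326 at Day 15. Some well-expressed genes were missing from single libraries: taking genes that reached 256 normalized counts in all 6 remaining libraries, 116 of 6966 had no read at Day 2 and 150 of 7045 none at Day 8, against at most 2 in any other library. Zeros at Day 2 and Day 8 are therefore weaker evidence of low expression than zeros at Day 15. The iPSC library was the shallowest, with 15370903 reads and 1 read worth 2.34 normalized counts, so zeros there are limited by depth. Mitochondrial genes took 1.72% of the reads at Day 2 and 5.61% at Day 15.

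The libraries were checked against marker genes. Fibroblast genes were high at Day 2: Col1a1, the main chain of type I collagen, was at 18.95, the mesenchymal homeobox gene Prrx1 at 13.56 and the PDGF receptor Pdgfrb at 11.90. Pou5f1 and Sox2 had no read at Day 2, while Klf4 had 309 reads and Myc 9773, so the Day 2 counts do not show induction of the vector. The counts do not separate vector transcripts from the cells' own. At Day 15, all 25 pluripotency genes of a marker list were above Day 2, 23 of them by 2 or more, with a median difference of 11.81. Pou5f1 stood at 13.67 at Day 15 beside 14.47 in iPSCs and 14.31 in ESCs, Nanog at 13.68 beside 14.93 in iPSCs and 14.22 in ESCs, and Dppa5a at 16.50 beside 17.66 in iPSCs and 17.58 in ESCs. Of 16 epithelial genes, 15 were higher; Cdh1, the epithelial cadherin, had no read at Day 2 and a level of 12.63 at Day 15. The keratin genes Krt8 and Krt18 were at 14.54 and 14.43 at Day 15, above 8.41 and 8.68 in iPSCs. Over the 16 epithelial genes the median was 11.08 at Day 15, beside 8.53 in iPSCs and 10.27 in ESCs. The Day 15 library thus carried both pluripotency and epithelial transcripts.

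Across all genes kept, 1628 were lower at Day 15 (11.3%), 2899 higher (20%) and 6838 within 1 (47.3%), with a median difference of 0.12. A further 1710 genes (11.8%) were between 1 and 2 lower and 1395 (9.64%) between 1 and 2 higher. A Day 2 read was lacking for 1733 of the 2899 (59.8%), whereas 251 of the 1628 lower genes had none at Day 15 (15.4%). Scaling to total reads in place of the deposited size factors moved the median gene by 0.45 toward Day 15. With that scaling 1212 genes were lower and 3762 higher. Among the 11821 genes that were at least 6 at Day 2, called Day 2 genes here, 6761 were within 1 at Day 15 (57.2%), 1628 were lower (13.8%) and 509 higher (4.31%). The other libraries were set beside Day 2 in the same way: 25%, 16.5% and 14.6% of the Day 2 genes were lower at Days 8, 10 and 13, and 22% and 21.9% in the iPSC and ESC libraries. All of these comparisons share the Day 2 library.

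**Figure D1:**
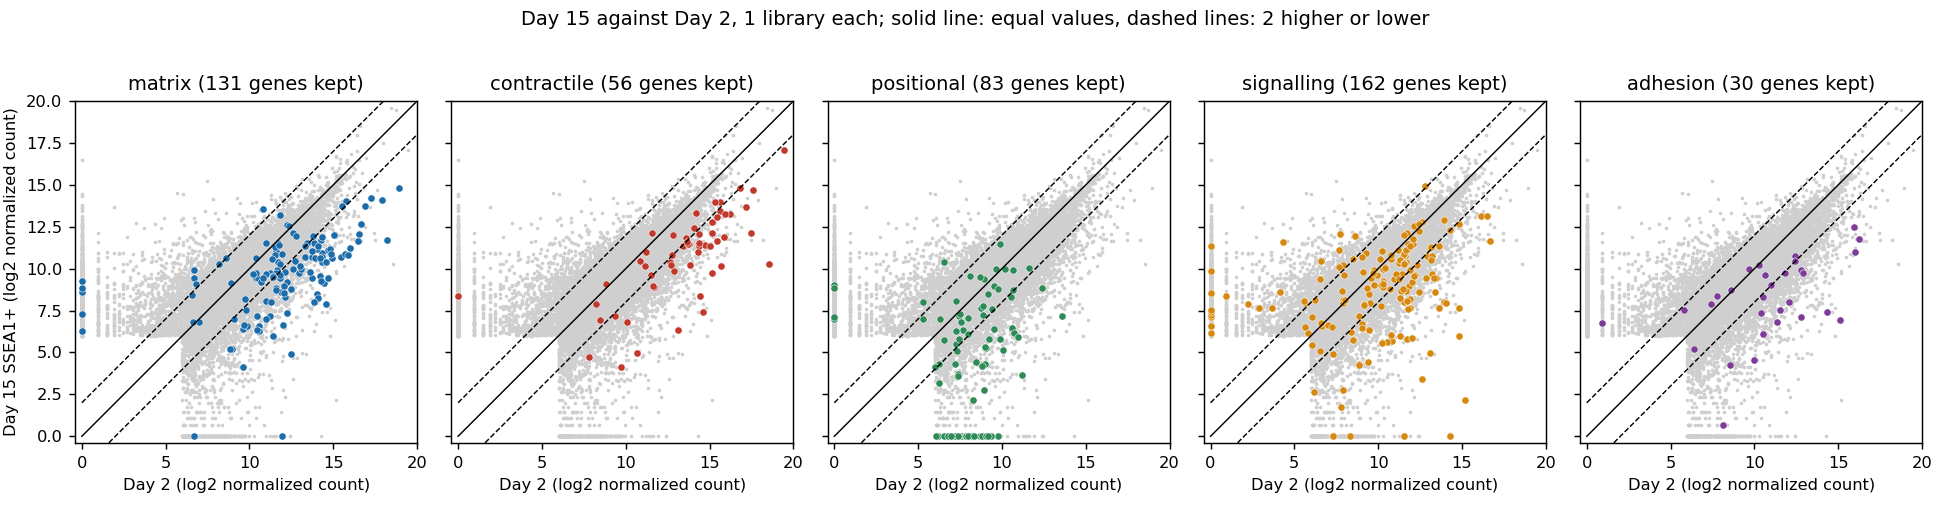
Log2 normalized count at Day 2 (horizontal axis) and in the Day 15 SSEA1+ library (vertical axis) for the 14470 genes kept (grey), with the genes of 1 area coloured in each panel; the solid line marks equal values and the dashed lines a difference of 2. Most matrix, contractile and adhesion genes lie below the lower dashed line, and 23 of the 83 positional genes lie on the horizontal axis, with no read at Day 15.

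To separate fibroblast-type genes from genes that pluripotent cells also express, Day 2 genes were split by whether Day 2 exceeded both the iPSC and the ESC library by 2 or more. Of the 1989 genes above both, 1279 were lower at Day 15 (64.3%), 426 were between 1 and 2 lower (21.4%), 251 were within 1 (12.6%), 23 were between 1 and 2 higher (1.16%) and 10 were higher (0.503%). The median gene of this class kept 17.1% of its Day 2 normalized count at Day 15, with quartiles of 5.52% and 34.0%. Of the 9832 other Day 2 genes, 349 were lower (3.55%) and 6510 within 1 (66.2%), and the median gene kept 101%. The Day 2 library enters both the class and the difference, so these shares are a description.

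Genes of 22 lists in 5 areas (matrix, contractile, positional, signalling and adhesion) were then read one list at a time. Of their 493 genes in the table, 462 were kept, and 246 of those were lower (53.2%), beside 11.3% of all genes kept. A further 66 were between 1 and 2 lower, 93 were within 1, 11 were between 1 and 2 higher and 46 were higher. All lower genes were Day 2 genes, 246 of the 428 Day 2 genes in these lists, beside 13.8% of all Day 2 genes. Median differences were -2.85 for 131 matrix genes, -2.45 for 56 contractile genes, -3.16 for 83 positional genes, -1.11 for 162 signalling genes and -2.95 for 30 surface and adhesion genes. The members next to the limits were Pdlim1 at -2.05 and Amotl2, just short of 2, for lower, and Tgfbr3, just inside 1, and Irx3 at -1.02 for within. Hoxc5, with 6.02 at Day 2, was just kept and Hoxd11, with 5.98, just not. In bulk RNA, fewer cells of a type and less RNA per cell cannot be told apart, which holds for each of these differences.

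**Figure D2:**
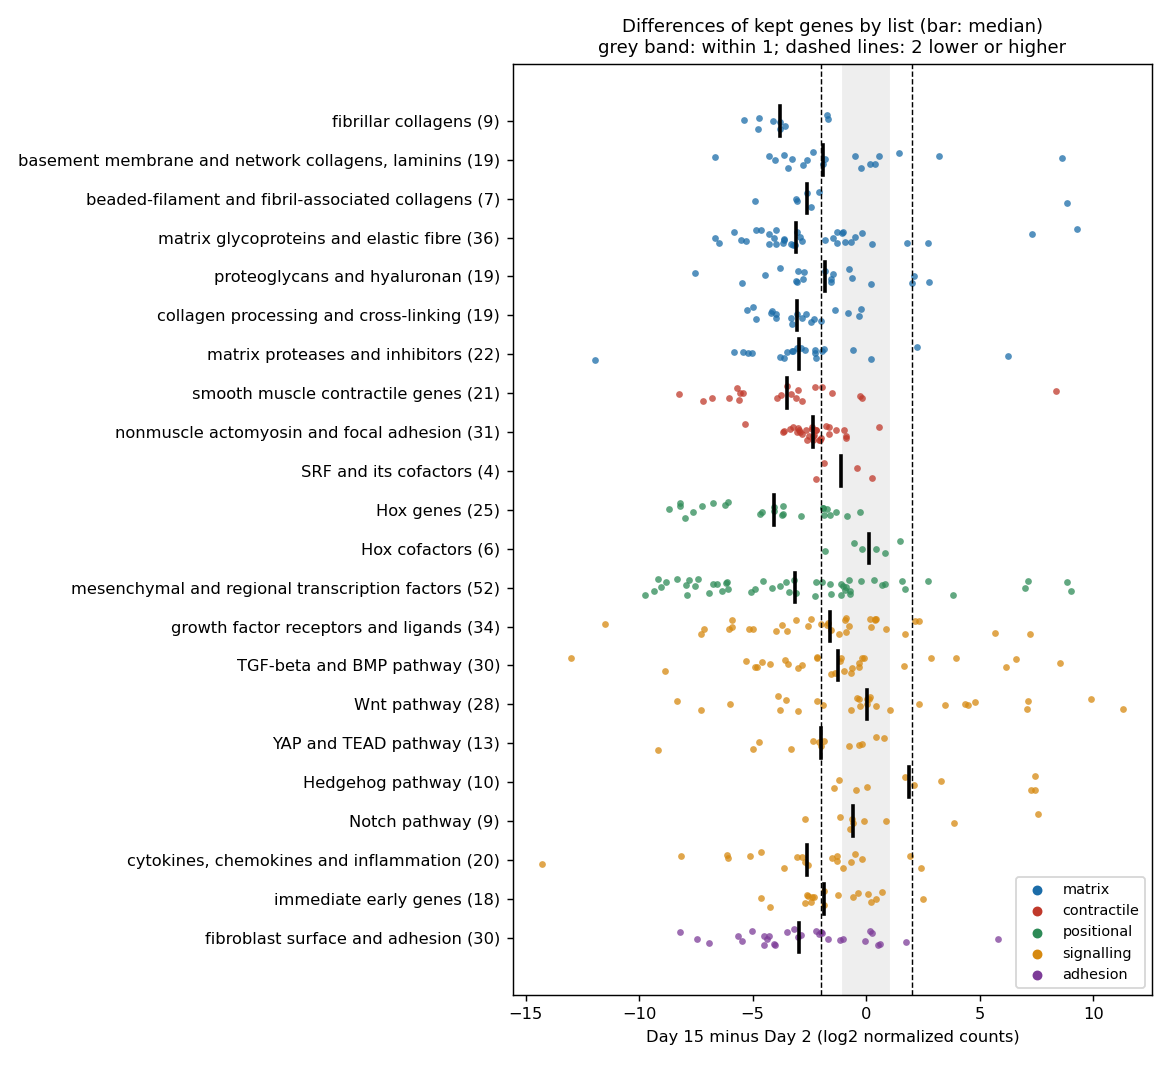
Day 15 minus Day 2 (horizontal axis, log2 normalized counts) for the kept genes of each list, 1 point per gene, with the number of genes in brackets, the area by colour and the median as a black bar. The medians of the fibrillar collagen, smooth muscle and Hox lists lie at -3.78, -3.49 and -4.04, that of the Wnt list at 0.04 and that of the Hedgehog list at 1.89.

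Fibrillar collagens, the rope-like proteins that give connective tissue its tensile strength, were all below their Day 2 level at Day 15 and, Col27a1 excepted, above both the iPSC and the ESC library. Of the 9 genes kept, 7 were lower and 2 were between 1 and 2 lower, with a median of -3.78. Col1a1 (chr11:94936224-94953042, GRCm38) was at 18.95 at Day 2, 14.79, 11.07 and 13.40 at Days 8, 10 and 13, and 14.84 at Day 15, beside 8.23 in iPSCs and 10.24 in ESCs. It was thus lowest in the Day 10 library and higher again in each of the next 2, ending 17.2-fold lower (17.1 to 17.4) at Day 15 than at Day 2. Col1a2, the partner chain, had the same shape, at 17.89 at Day 2, 14.14, 10.26 and 12.70 at Days 8, 10 and 13, and 14.12 at Day 15, and ended 13.7-fold lower (13.5 to 13.9). Col5a1 and Col5a2, which set the width of collagen fibrils, were 27.4-fold lower (26.4 to 28.5) and 26.8-fold lower (25.9 to 27.6). Col3a1, the chain of the thinner type III fibrils, and Col11a1 were the 2 genes short of the limit, named after their values were seen. Col3a1 was at 15.76 at Day 2, 14.43, 10.55 and 12.35 at Days 8, 10 and 13, and 14.02 at Day 15, 3.33-fold lower (3.29 to 3.38) at Day 15. Over the 9 genes the summed normalized count was 947524 at Day 2. It was 75466, 6169 and 24460 at Days 8, 10 and 13, and 71131 at Day 15, against 1891 in iPSCs and 3494 in ESCs.

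The basement membrane, the sheet on which epithelial cells sit, was split among its genes. Of 19 genes kept, 9 were lower, 2 between 1 and 2 lower, 5 within 1, 1 between 1 and 2 higher and 2 higher. Nid1, a linker of laminin and collagen IV, was 10.8-fold lower (10.4 to 11.2), the collagen IV chain Col4a1 5.07-fold lower (4.91 to 5.23) and the proteoglycan perlecan, Hspg2, 6.01-fold lower (5.77 to 6.27). The laminin chains Lama5, Lamb1 and Lamc1 were within 1. Lama5 was at 12.21 at Day 2 and 12.59 at Day 15, Lamb1 at 12.60 at Day 2 and 12.10 at Day 15 and Lamc1 at 11.72 at Day 2 and 11.51 at Day 15. Nid2 was at 12.38 at Day 2, 10.22, 12.02 and 12.65 at Days 8, 10 and 13, and 12.57 at Day 15, a return after a single low library. Lama1, a laminin chain of the early embryo, had no read at Day 2 and 8.64 at Day 15, and Col8a2 was 9.42-fold higher (7.79 to 11.5). These 3 laminin chains were expressed in the pluripotent libraries as well, with Lamc1 at 12.26 in iPSCs and 11.54 in ESCs. Of the beaded-filament and fibril-associated collagens 6 of 7 were lower. The type VI chains Col6a1, Col6a2 and Col6a3 were 6.07-fold lower (5.89 to 6.25), 5.41-fold lower (5.27 to 5.56) and 8.65-fold lower (8.21 to 9.11), and Col12a1 was 8.28-fold lower (7.95 to 8.61). The exception was Col14a1, without a read through Day 10 and at 7.46 and 8.84 at Days 13 and 15, absent from both pluripotent libraries.

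Among matrix glycoproteins and elastic fibre genes, 21 of 36 were lower, 6 between 1 and 2 lower, 5 within 1, 1 between 1 and 2 higher and 3 higher, with a median of -3.09. Tnxb, the other gene of this list, was not found in the table by its symbol. Thrombospondin 1 (Thbs1), a matricellular activator of TGF-beta, was at 18.21 at Day 2, 10.81, 10.18 and 10.48 at Days 8, 10 and 13, and 11.74 at Day 15 and ended 88.8-fold lower (86.5 to 91.1). Fibronectin (Fn1) was at 16.88 at Day 2, 13.20, 12.80 and 13.21 at Days 8, 10 and 13, and 13.73 at Day 15, beside 12.92 in iPSCs and 12.70 in ESCs. It ended 8.88-fold lower (8.76 to 9.0) than at Day 2, and none of the later libraries, pluripotent ones included, was above the Day 15 value. Sparc, a collagen-binding glycoprotein, was 8.18-fold lower (8.08 to 8.27), and fibulin 2 (Fbln2) 28.8-fold lower (27.8 to 29.9). Not every gene stayed down. Periostin (Postn), a TGF-beta-responsive matrix protein of activated fibroblasts, was at 11.50 at Day 2, 11.89, 7.30 and 9.47 at Days 8, 10 and 13, and 10.83 at Day 15, with 0 in iPSCs and 7.59 in ESCs. It was lowest at Day 10 and back at 63.0% of its Day 2 normalized count at Day 15. Thbs3 had a similar course, at 10.37 at Day 2, 7.91, 3.9 and 7.10 at Days 8, 10 and 13, and 9.43 at Day 15. Fbln1 and Ltbp4, a latent TGF-beta binding protein, were within 1 at Day 15 with no low library in between, and were expressed in ESCs too, at 11.26 and 12.36. Mfap4, a microfibril protein, was 6.63-fold higher (5.47 to 8.11), and vitronectin (Vtn) and Matn4 had no read at Day 2 and 9.28 and 7.32 at Day 15.

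Small leucine-rich proteoglycans, which decorate collagen fibrils, went in both directions. Biglycan (Bgn) was at 16.53 at Day 2, 13.00, 8.94 and 10.68 at Days 8, 10 and 13, and 12.09 at Day 15 and ended 21.7-fold lower (21.2 to 22.2). Decorin (Dcn) was at 8.18 at Day 2, 13.09, 12.39 and 11.90 at Days 8, 10 and 13, and 10.29 at Day 15, and lumican (Lum) at 8.63 at Day 2, 9.93, 7.48 and 9.43 at Days 8, 10 and 13, and 10.65 at Day 15. Both were higher at Day 15 than at Day 2, decorin 4.32-fold higher (3.84 to 4.88) and lumican 4.07-fold higher (3.68 to 4.52), and neither had a read in the iPSC library. Fmod and Prelp were within 1 after lower values in between, with Fmod at 10.38 at Day 2, 5.39, 8.57 and 8.29 at Days 8, 10 and 13, and 9.76 at Day 15. The cell surface syndecans Sdc1, Sdc2 and Sdc4 were 6.62-fold lower (6.38 to 6.87), 8.63-fold lower (8.2 to 9.09) and 8.26-fold lower (8.05 to 8.47). Among glypicans, which hold growth factors at the membrane, Gpc1 was within 1 (11.32 at Day 2 and 10.58 at Day 15) and Gpc3 was 6.87-fold higher (6.56 to 7.20). In all, 9 of 19 genes were lower, 4 between 1 and 2 lower, 3 within 1 and 3 higher.

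Enzymes that process and cross-link collagen were mostly lower, 14 of 19, with 2 between 1 and 2 lower and 3 within 1. Lysyl oxidase (Lox), which cross-links collagen and elastin, was at 16.49 at Day 2, 12.07, 9.04 and 9.72 at Days 8, 10 and 13, and 11.65 at Day 15 and 28.6-fold lower (27.9 to 29.4) at Day 15. The collagen chaperone Serpinh1 was 15.6-fold lower (15.3 to 15.9), the procollagen C-proteinase enhancer Pcolce 15.8-fold lower (15.3 to 16.4) and Loxl1 38.7-fold lower (36.5 to 41.0). The 3 genes within 1 were P4ha1 and Plod2, a prolyl and a lysyl hydroxylase, and the transglutaminase Tgm2. P4ha1 held at 12.75 at Day 2, 12.70, 12.52 and 12.58 at Days 8, 10 and 13, and 11.94 at Day 15, and Tgm2 was above Day 2 in the middle of the course, at 11.77 at Day 2, 14.92, 14.17 and 12.92 at Days 8, 10 and 13, and 11.44 at Day 15. Matrix proteases and inhibitors showed 16 of 22 lower, 2 between 1 and 2 lower, 2 within 1 and 2 higher. The inhibitors Timp1 and Timp3 were 33.1-fold lower (31.9 to 34.3) and 36.9-fold lower (34.9 to 39.1), the membrane protease Mmp14 12.2-fold lower (11.7 to 12.7) and the gelatinase Mmp2 6.55-fold lower (6.34 to 6.77). Plau, urokinase, had 4249 reads at Day 2 and none at Day 15, at least 2231-fold lower. Mmp11 and Mmp13 were within 1, and Mmp9, 4.77-fold higher (3.95 to 5.80), and Timp4, with 130 reads at Day 15 and none at Day 2, were higher. Mmp10, Mmp12 and Fap were below the limit of 6 in both libraries.

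Many matrix genes were higher at Day 15 than at Day 10, a comparison made after the values were seen. Of the 131 genes, 82 were at least 1 higher at Day 15 than at Day 10 and 12 at least 1 lower, with a median Day 15 minus Day 10 difference of 1.63, beside 22.4%, 11% and a median of 0.13 over all genes kept. At Day 10, 103 of the matrix genes were 2 or more below Day 2, and 71 of those were at least 1 higher by Day 15, beside 1212 of the 2049 such genes among all genes kept. These counts rest on the Day 10 library. With Day 13 in its place, 101 of the 131 genes were 2 or more below Day 2, against 82 at Day 15. Adipocyte and chondrocyte markers differed between the libraries too: their summed normalized count was 2241 at Day 2, 4791, 1200 and 2921 at Days 8, 10 and 13, and 3331 at Day 15. Comp, a cartilage matrix protein, was at 0.94 at Day 2 and 10.62 at Day 15, 2 of the 11 markers in the table (Matn1 and Hapln1) had no read at Day 15, and their part in the matrix values was not tested.

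Most smooth muscle genes were lower at Day 15. Of 21 smooth muscle genes, 16 were lower, 2 between 1 and 2 lower, 2 within 1 and 1 higher, with a median of -3.49. Smooth muscle actin, Acta2 (chr19:34241090-34255590, GRCm38), was at 18.56 at Day 2, 9.81, 9.33 and 9.88 at Days 8, 10 and 13, and 10.30 at Day 15, beside 7.07 in iPSCs and 10.97 in ESCs, and ended 307-fold lower (295 to 321), with 422345 reads at Day 2 and 2165 at Day 15. Transgelin (Tagln), which binds actin filaments, was at 13.12 at Day 2, 6.15, 3.9 and 4.92 at Days 8, 10 and 13, and 6.34 at Day 15 and 111-fold lower (94.3 to 133). Both were already low in the Day 8 library and were not back near their Day 2 level in any later one. Tropomyosins Tpm1 and Tpm2, which wrap the filament, were 11.2-fold lower (11.05 to 11.4) and 46.5-fold lower (44.4 to 48.7), and the calponin Cnn2 15.2-fold lower (14.8 to 15.6). The 2 genes within 1 were Csrp2, a LIM protein, and Mylk, myosin light chain kinase. Mylk was at 8.21 at Day 2, 6.80, 5.17 and 6.52 at Days 8, 10 and 13, and 7.92 at Day 15, and without a read in the iPSC library. Cardiac actin, Actc1, had no read at Day 2 and 558 at Day 15, where it stood at 8.34.

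Nonmuscle actin, myosin and focal adhesion genes were lower in 22 of 31, between 1 and 2 lower in 5 and within 1 in 4, with no gene higher and a median of -2.33. Beta-actin (Actb) was at 19.46 at Day 2, 17.71, 17.28 and 17.03 at Days 8, 10 and 13, and 17.07 at Day 15, beside 17.07 in iPSCs and 17.05 in ESCs, 5.28-fold lower (5.25 to 5.30) at Day 15. Vimentin (Vim), the mesenchymal intermediate filament, was at 17.45 at Day 2, 13.18, 9.29 and 10.63 at Days 8, 10 and 13, and 12.12 at Day 15, beside 10.98 in iPSCs and 11.15 in ESCs. It was lowest at Day 10, higher at Days 13 and 15, and 40.1-fold lower (39.2 to 41.1) at Day 15 than at Day 2. Tmsb4x, which binds free actin, and Tpm4 were 7.64-fold lower (7.56 to 7.72) and 7.78-fold lower (7.65 to 7.91). The genes within 1 were Tpm3, Myl12b, Pxn and Myh10. Nonmuscle myosin IIB, Myh10, was at 12.85 at Day 2, 8.72, 9.71 and 11.14 at Days 8, 10 and 13, and 11.98 at Day 15, a return that ended above both pluripotent libraries (11.09 in iPSCs and 11.21 in ESCs). Srf, the transcription factor behind many of these genes, was within 1 (8.85 at Day 2 and 9.09 at Day 15), as was its cofactor Mkl2 (10.84 at Day 2 and 10.45 at Day 15). Mkl1, named after its values were seen, was at 11.48 at Day 2 and 9.64 at Day 15, and the smooth muscle cofactor Myocd was 4.69-fold lower (4.05 to 5.45). Scaling to total reads gave a contractile median of -2.0 in place of -2.45.

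**Figure D3:**
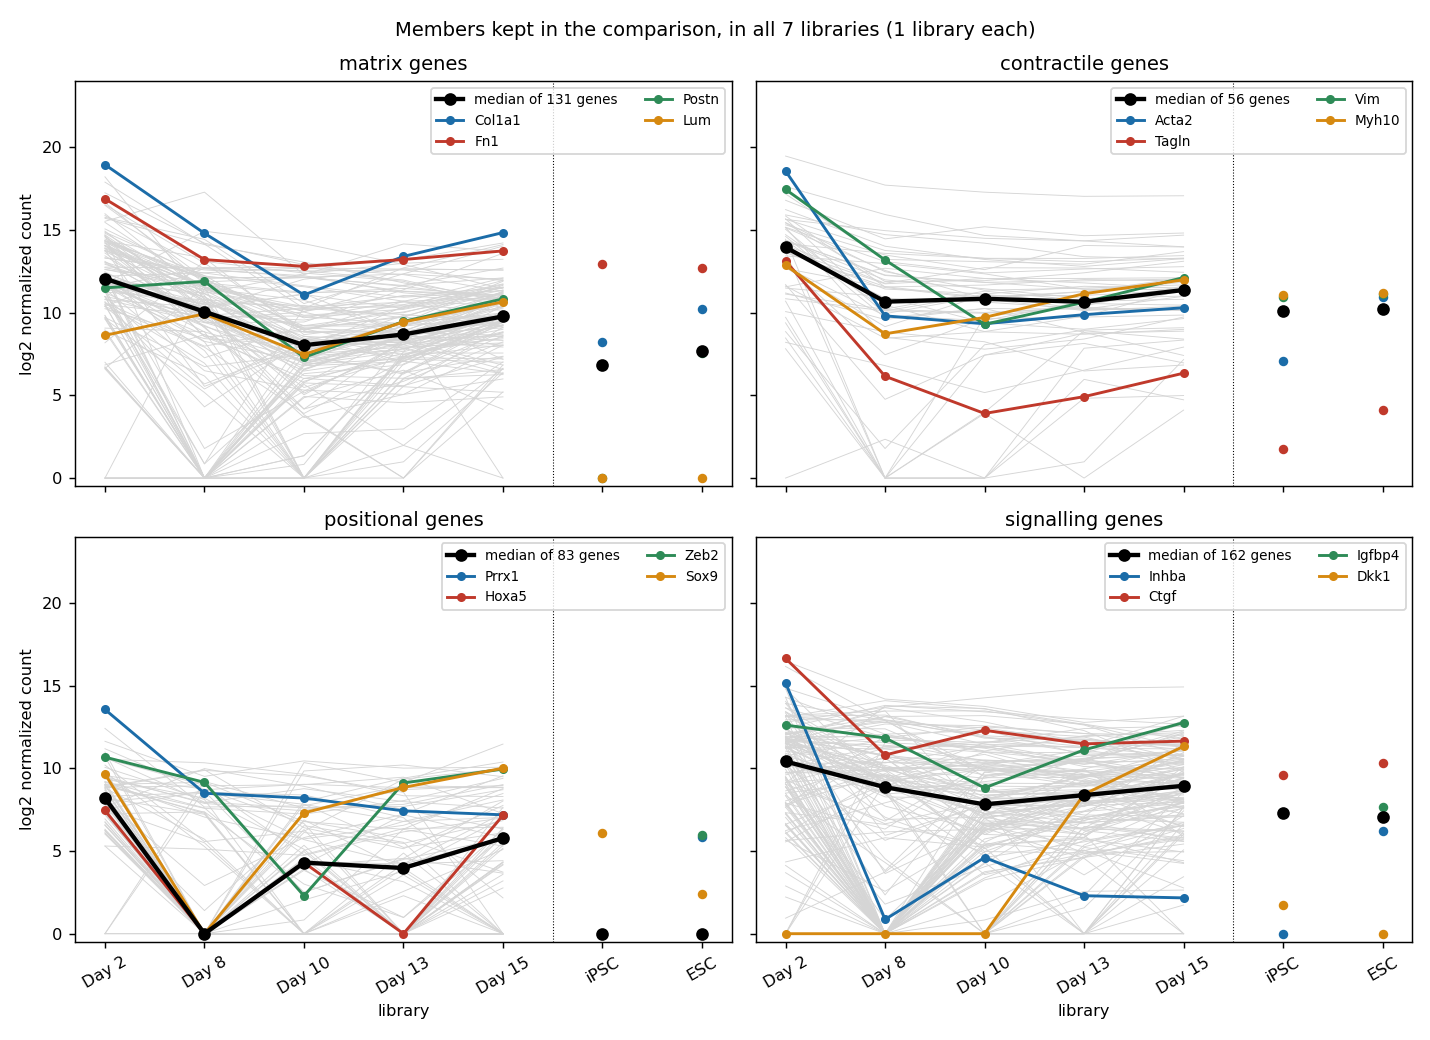
Log2 normalized counts (vertical axis) in the 7 libraries (horizontal axis) for kept matrix, contractile, positional and signalling genes: grey lines are single genes over Days 2 to 15, the black line and points their median, and coloured lines 4 named genes of each area. The matrix and positional medians are higher at Day 15 than at Day 10, while Acta2, Prrx1 and Inhba stay low after Day 2 and Igfbp4, Sox9 and Zeb2 come back to within 1.

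Hox genes, which mark position along the body and limb axes, were detected at Day 2 from all 4 clusters and were mostly low at Day 15. Of 34 genes in the table, 25 were kept, and 17 were lower, 6 between 1 and 2 lower and 2 within 1, with a median of -4.04. All 25 were kept through their Day 2 value, so these numbers describe Hox genes chosen as high at Day 2. Of all Day 2 genes, 13.8% were lower. Read numbers were small, with at most 1020 reads for any Hox gene at Day 2. At Day 15, 9 of the 25 had no read. In the iPSC library 6 of the 25 had a read and in the ESC library 4, while 8 had one at Day 8, 11 at Day 10 and 9 at Day 13, against 16 at Day 15. Of all 14470 genes kept, 11328, 13588 and 13964 had a read at Days 8, 10 and 13, and 14219 at Day 15. In iPSCs 13213 had one and in ESCs 13095. The Day 15 library was the deepest, with 57021069 reads, so genes with few reads were most easily detected there.

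The clusters were read one by one. In the HoxA cluster on chromosome 6, 5 of 8 kept genes were lower, 1 between 1 and 2 lower and 2 within 1. Hoxa5 (chr6:52201754-52204587, GRCm38) was at 7.45 at Day 2, 0, 4.30 and 0 at Days 8, 10 and 13, and 7.16 at Day 15, with 190 reads at Day 2 and 244 at Day 15 and none in iPSCs or ESCs. Hoxa3 was at 6.57 at Day 2, 0, 4.35 and 4.22 at Days 8, 10 and 13, and 5.73 at Day 15. Both were thus back within 1 at Day 15. Hoxa10 was 16.7-fold lower (13.6 to 20.8), Hoxa7 13.6-fold lower (10.5 to 17.8) and Hoxa11 13.1-fold lower (10.1 to 17.1), while Hoxa13, with 74 reads at Day 2, had none. Hoxa9 was at 7.66 at Day 2, 9.98, 8.91 and 7.5 at Days 8, 10 and 13, and 6.33 at Day 15, and so was above its Day 2 level at Days 8 and 10 before it was below it at Day 15.

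In the HoxB cluster, 4 of 6 kept genes were lower and 2 between 1 and 2 lower. Hoxb6, Hoxb7 and Hoxb8 had 447, 321 and 80 reads at Day 2 and none at Day 15, Hoxb6 at least 235-fold lower and Hoxb7 at least 169-fold lower, and Hoxb9 was 17.2-fold lower (12.2 to 25.1). Hoxb2 and Hoxb5 had no read at Days 8, 10 and 13 but 77 and 33 reads at Day 15, with Hoxb2 at 7.24 at Day 2 and 5.51 at Day 15 and Hoxb5 at 6.23 at Day 2 and 4.33 at Day 15. The HoxC cluster gave 4 lower and 2 between 1 and 2 lower of 6. Hoxc9 was 27.1-fold lower (18.9 to 39.97), Hoxc10 25.5-fold lower (17.6 to 38.2), Hoxc8 7.59-fold lower (5.19 to 11.4), and Hoxc6, with 213 reads at Day 2, had none. Hoxc4 was at 7.99 at Day 2 and 6.09 at Day 15, and Hoxc5 at 6.02 at Day 2 and 4.16 at Day 15. In the HoxD cluster 4 of 5 were lower, and all 4, Hoxd8, Hoxd10, Hoxd12 and Hoxd13, had no read at Day 15; Hoxd10 went from 319 reads to none, at least 167-fold lower. Hoxd9 was the exception, at 7.43 at Day 2, 0, 3.83 and 0.98 at Days 8, 10 and 13, and 5.83 at Day 15.

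Hox genes were also grouped by paralog number, which follows position along the cluster, after the values were seen. In groups 1 to 5, 1 of 7 kept genes was lower, 4 were between 1 and 2 lower and 2 within 1. In groups 6 to 9, 9 of 11 were lower, and in groups 10 to 13, 7 of 7, beside 13.8% of all Day 2 genes. The medians of the 3 sets were -1.87, -4.69 and -6.10, so the genes of groups 1 to 5 were mostly below Day 2 as well. With zeros set to 3 reads the medians were -1.87, -4.69 and -4.65. Groups 10 to 13 were then no deeper than groups 6 to 9. All 7 genes of groups 1 to 5 had reads at Day 15, against 6 of 11 and 3 of 7. The 9 Hox genes not kept were below 6 in both libraries. Hoxa2, Hoxa4, Hoxb13 and Hoxc13 had no read at Day 2 and 26 to 94 at Day 15, and Hoxc11 and Hoxd11 had 64 and 68 at Day 2 and none at Day 15. Hoxa6 had 26 and 44 reads, Hoxd3 1 and 22, and Hoxd1 none in either. Unstranded libraries do not separate Hox genes from the antisense transcripts of the clusters.

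**Figure D4:**
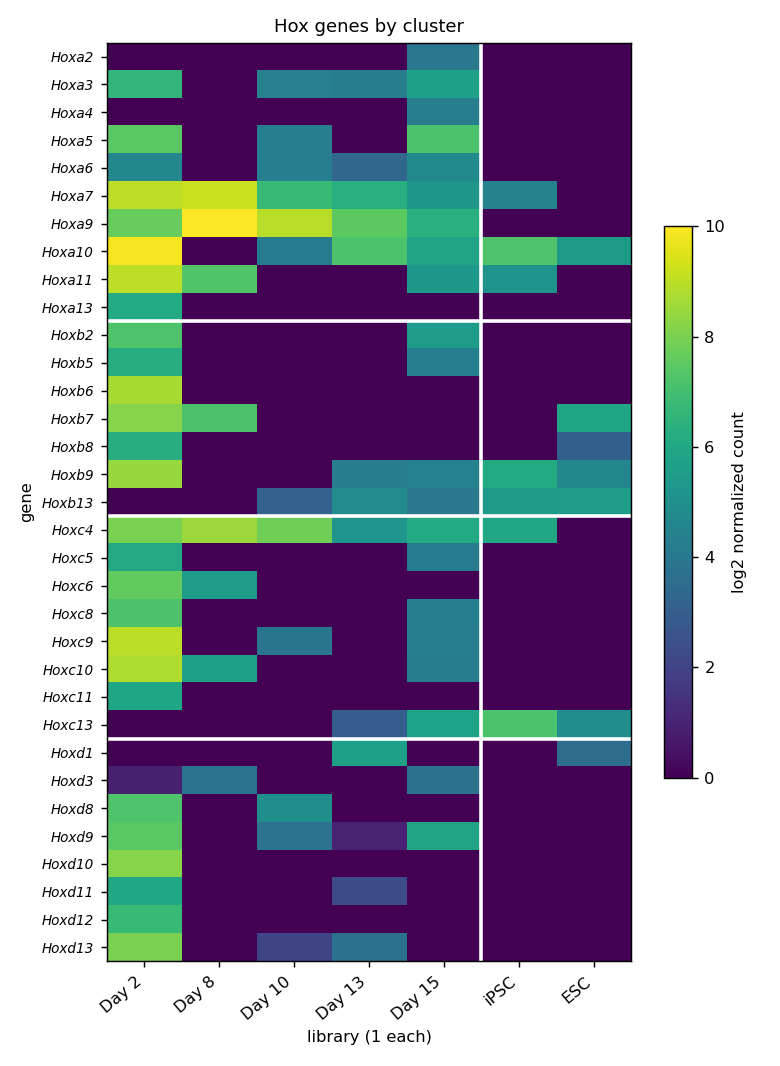
Log2 normalized counts (colour) of Hox genes in cluster order from A to D (rows, white lines between clusters), in the 7 libraries (columns, 1 each). The Day 2 column is bright in most rows, and the highest value at Day 15 is that of Hoxa5, while the iPSC and ESC columns are mostly at 0.

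The Hox cofactors of the Pbx and Meis families, which bind DNA with Hox proteins, were all Day 2 genes. Of 6 genes, 4 were within 1, beside 57.2% of all Day 2 genes, 1 between 1 and 2 lower and 1 between 1 and 2 higher, with a median of 0.12. Among those within 1 were Pbx2 (7.27 at Day 2 and 8.08 at Day 15), Pbx3 (8.94 at Day 2 and 9.39 at Day 15) and Meis3 (9.50 at Day 2 and 8.96 at Day 15). Meis1 was at 9.42 at Day 2 and 7.59 at Day 15, and Meis2 at 8.08 at Day 2 and 9.54 at Day 15. Taking the Day 13 library in place of Day 15 turned the sign of this median, to -0.85.

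Mesenchymal and regional transcription factors, which include homeobox, T-box and forkhead genes of limb, face and trunk mesenchyme, were lower in 29 of 52 genes kept. Of the rest, 6 were between 1 and 2 lower, 9 within 1, 2 between 1 and 2 higher and 6 higher, with a median of -3.12. Prrx1, a regulator of limb and face mesenchyme, was at 13.56 at Day 2, 8.49, 8.2 and 7.43 at Days 8, 10 and 13, and 7.19 at Day 15, beside 0 in iPSCs and 5.84 in ESCs, and 83.3-fold lower (73.4 to 94.8) at Day 15. It was thus lower in each later library and showed no return. Osr1, of intermediate and limb mesenchyme, was 199.8-fold lower (129 to 328), Foxc2 34.1-fold lower (27.9 to 42.0) and Runx2, the bone regulator, 10.9-fold lower (8.74 to 13.7). Several genes had no read at Day 15: Twist2, Pitx1, Tbx15, Lhx9, Hic1, Barx1, Emx2 and Tbx4 had between 241 and 949 at Day 2. Tbx15 was at 8.83 at Day 2, 9.87, 9.54 and 8.54 at Days 8, 10 and 13, and 0 at Day 15 and Tbx18 at 8.30 at Day 2, 8.55, 8.39 and 7.01 at Days 8, 10 and 13, and 2.16 at Day 15, so both were near their Day 2 level through Day 10 and at or near 0 at Day 15.

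The drivers of epithelial to mesenchymal transition were not alike. Snai1 was 11.8-fold lower (10.9 to 12.7), Snai2 18.0-fold lower (15.2 to 21.5), Twist1 4.72-fold lower (3.48 to 6.49), and Twist2 had 949 reads at Day 2 and none at Day 15. Zeb1 was at 10.66 at Day 2 and 8.70 at Day 15. Zeb2 was within 1, at 10.67 at Day 2, 9.15, 2.29 and 9.11 at Days 8, 10 and 13, and 9.95 at Day 15, with no read in iPSCs. Among other regional genes within 1 were Sox9, a regulator of cartilage (9.66 at Day 2, 0, 7.30 and 8.84 at Days 8, 10 and 13, and 10.01 at Day 15), Msx1 (9.17 at Day 2, 7.05, 5.73 and 6.55 at Days 8, 10 and 13, and 8.47 at Day 15), Irx5 (7.97 at Day 2 and 7.06 at Day 15), Foxd1 (7.25 at Day 2 and 6.30 at Day 15), Six4 (8.68 at Day 2 and 9.49 at Day 15), Sox5 (7.52 at Day 2 and 7.29 at Day 15) and Mkx (6.32 at Day 2 and 7.03 at Day 15). Tbx3, which pluripotent cells use as well, was at 9.87 at Day 2 and 11.46 at Day 15. Among the 6 higher genes were Eya1, Tbx20, Gata4 and Hand1, of which Gata4 and Hand1 had no read at Day 2 and were at 9.20 and 8.70 at Day 8. The table held 62 of the listed genes, of which 10 were not kept, among them Tbx5, Wt1, Gata6, Osr2 and Nr2f1, and none of the 10 had more than 92 reads in either library.

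Signalling genes were divided. Of 162 kept, 61 were lower (37.7%), 22 between 1 and 2 lower and 47 within 1 (29.0%). A further 5 were between 1 and 2 higher and 27 higher (16.7%). Over all genes kept, 11.3% were lower, 47.3% within 1 and 20% higher, so the share higher was below that of all genes. Among growth factor receptors and ligands 14 of 34 were lower, 5 between 1 and 2 lower, 10 within 1, 1 between 1 and 2 higher and 4 higher. The receptor tyrosine kinase Axl was at 14.79 at Day 2, 8.99, 7.70 and 0 at Days 8, 10 and 13, and 7.65 at Day 15, 142-fold lower (128 to 159) at Day 15, while its ligand Gas6 was within 1 throughout, at 11.72 at Day 2, 12.05, 11.04 and 11.97 at Days 8, 10 and 13, and 12.15 at Day 15, beside 8.13 in iPSCs and 9.16 in ESCs. Receptors for PDGF, a mitogen of mesenchymal cells, were both lower: Pdgfra 8.62-fold lower (7.19 to 10.4) and Pdgfrb 13.2-fold lower (12.0 to 14.5). Pdgfrb was at 11.90 at Day 2, 8.87, 0 and 7.00 at Days 8, 10 and 13, and 8.18 at Day 15, higher at Day 15 than at Day 10, where it had no read. Fgfr1 was within 1 (11.75 at Day 2 and 12.14 at Day 15), beside 11.86 in iPSCs and 11.98 in ESCs. The cytokine Csf1, which keeps macrophages alive, was 61.1-fold lower (55.5 to 67.3), the EGF-family ligand Hbegf 15.6-fold lower (14.7 to 16.5) and the collagen receptor Ddr2 11.2-fold lower (10.6 to 11.8); Ereg had 3198 reads at Day 2 and none at Day 15. IGF-binding proteins took separate ways. Igfbp4 was at 12.61 at Day 2, 11.83, 8.82 and 11.11 at Days 8, 10 and 13, and 12.76 at Day 15, beside 7.28 in iPSCs and 7.65 in ESCs, a return to 111% of Day 2. Igfbp5 was at 4.34 at Day 2, 5.80, 5.23 and 7.07 at Days 8, 10 and 13, and 11.57 at Day 15, 158-fold higher (103 to 256), Igfbp2 was 4.38-fold higher (4.28 to 4.49), and Igfbp3 was within 1 (11.62 at Day 2 and 10.74 at Day 15).

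The TGF-beta and BMP list joins 2 branches, of which TGF-beta signalling drives myofibroblast activation. Of its 30 genes kept, 13 were lower, 4 between 1 and 2 lower, 7 within 1, 1 between 1 and 2 higher and 5 higher. The 5 are 16.7%, beside 20% of all genes kept. Inhba, the activin A subunit, was among the 10 deepest differences of all genes kept, at 15.16 at Day 2, 0.86, 4.60 and 2.29 at Days 8, 10 and 13, and 2.16 at Day 15, from 40065 reads to 6. Lrrc32, which tethers latent TGF-beta to the cell surface, was at 14.83 at Day 2, 0, 0 and 4.72 at Days 8, 10 and 13, and 5.97 at Day 15 and 473-fold lower (391 to 578). Fstl1 was 8.04-fold lower (7.90 to 8.18) and the BMP target Id3 4.47-fold lower (4.37 to 4.56). The activin antagonist follistatin (Fst) was within 1, at 11.86 at Day 2, 8.63, 9.19 and 9.96 at Days 8, 10 and 13, and 11.21 at Day 15, beside 7.69 in iPSCs and 8.67 in ESCs. The signal transducer Smad3 was at 11.51 at Day 2, 9.32, 8.91 and 10.55 at Days 8, 10 and 13, and 10.86 at Day 15, and Id2 and Skil were within 1 with no low library in between, Id2 at 11.76 at Day 2 and 11.45 at Day 15 and Skil at 10.76 at Day 2 and 10.57 at Day 15. The 5 higher genes were the ligands Bmp2, Bmp6 and Gdf10, each without a read at Day 2, and the BMP antagonists Nog and Chrd. Bmp2 was at 0 at Day 2, 0, 4.24 and 7.80 at Days 8, 10 and 13, and 8.53 at Day 15, with no read in iPSCs or ESCs, and Nog was 16.9-fold higher (9.72 to 32.0). Tgfb1 and Gdf5 were below 6 in both libraries.

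Wnt pathway genes had a median of 0.04, with 8 of 28 lower, 1 between 1 and 2 lower, 9 within 1, 1 between 1 and 2 higher and 9 higher. Wisp1, Wisp2 and Dkk3 were 63.8-fold lower (57.4 to 71.2), 14.9-fold lower (14.02 to 15.8) and 8.14-fold lower (7.5 to 8.85). The noncanonical ligand Wnt5a, also lower, was at 12.42 at Day 2, 8.60, 0 and 2.29 at Days 8, 10 and 13, and 8.60 at Day 15. Within 1 were the receptors Fzd1, Fzd2 and Fzd7 and the transcription factor Tcf7l2. Fzd1 was at 10.41 at Day 2, 0, 5.34 and 5.82 at Days 8, 10 and 13, and 10.08 at Day 15, beside 1.74 in iPSCs and 6.22 in ESCs. Among the 9 higher genes 6 encode secreted Wnt antagonists: Dkk1, Sfrp1, Sfrp2, Sfrp4, Frzb and Wif1. Dkk1 was at 0 at Day 2, 0, 0 and 8.43 at Days 8, 10 and 13, and 11.33 at Day 15, with no read in ESCs, and Sfrp1 was 20.4-fold higher (17.9 to 23.4), while Lef1 and Tcf7, the pathway's transcription factors, were 5.07-fold higher (4.45 to 5.80) and 31.6-fold higher (15.2 to 79.1). The median of this list changed sign when genes below 8 were left out (-0.14), when reads in both libraries were required (-0.14) and with Day 13 in place of Day 15 (-1.39).

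Ctgf, Cyr61 and Ankrd1, known targets of the stretch-responsive factors YAP and TEAD, were lower, while several of the factors themselves were within 1. Ctgf was at 16.64 at Day 2, 10.80, 12.29 and 11.47 at Days 8, 10 and 13, and 11.64 at Day 15 and 32.0-fold lower (31.2 to 32.9), Cyr61 10.00-fold lower (9.83 to 10.2), and Ankrd1 went from 6762 reads to 17, 626-fold lower (391 to 1076). Yap1 was within 1 (10.41 at Day 2 and 10.07 at Day 15), as were Tead1 (11.28 at Day 2 and 10.53 at Day 15), Tead2 (10.26 at Day 2 and 11.03 at Day 15) and Tead4 (9.60 at Day 2 and 9.42 at Day 15), whereas Tead3 was 5.12-fold lower (4.32 to 6.09). Of the 13 genes 6 were lower, 2 between 1 and 2 lower and 5 within 1. In the Hedgehog pathway none of 10 genes was lower, 2 were between 1 and 2 lower, 2 within 1, 1 between 1 and 2 higher and 5 higher, with a median of 1.89. This median was 0.86 when genes below 8 were left out, also 0.86 when reads in both libraries were required, and 0.14 with Day 13 in place of Day 15. Its receptor and target Ptch1 was at 8.63 at Day 2, 10.36, 10.35 and 10.57 at Days 8, 10 and 13, and 11.93 at Day 15, beside 10.27 in iPSCs and 10.66 in ESCs, and 9.86-fold higher (8.94 to 10.9). Gli1, the classical target, and Hhip had no read at Day 2 and 260 and 294 at Day 15, and Gli2 was 4.26-fold higher (3.83 to 4.75). In the Notch pathway 5 of 9 genes were within 1 (55.6%), near the share of all genes kept (47.3%) and of all Day 2 genes (57.2%). Among them were Notch1 (11.19 at Day 2 and 11.11 at Day 15), Notch2 (11.76 at Day 2 and 11.16 at Day 15) and the target Hes1 (12.05 at Day 2 and 11.48 at Day 15). Hey1 was 6.66-fold lower (5.29 to 8.45), Notch3 14.8-fold higher (12.2 to 18.1), and the ligand Jag2, without a read at Day 2, was at 11.56 at Day 8 and 7.55 at Day 15.

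Cytokine and inflammation genes were lower in 11 of 20, between 1 and 2 lower in 4, within 1 in 3, between 1 and 2 higher in 1 and higher in 1. Ppbp, a platelet-type chemokine, had 21922 reads at Day 2 and none in any other library, at least 11508-fold lower at Day 15. Ptgs2, the inducible prostaglandin synthase, was at 14.05 at Day 2, 5.94, 7.79 and 7.75 at Days 8, 10 and 13, and 7.95 at Day 15, 68.8-fold lower (62.4 to 75.9), and the IL-33 receptor Il1rl1 was 293-fold lower (223 to 393). Il6st, the shared receptor subunit through which LIF acts, was at 12.44 at Day 2, 12.38, 9.87 and 10.56 at Days 8, 10 and 13, and 12.26 at Day 15, a return to 88.0% of Day 2. Nfkbia (11.63 at Day 2 and 11.12 at Day 15) and Nfkbiz (9.73 at Day 2 and 9.04 at Day 15), feedback regulators of NF-kB, were within 1, and Icam1 was 5.38-fold higher (4.68 to 6.22). Macrophage and blood markers moved across these libraries too: 16 genes summed to 765 normalized counts at Day 2, 56188, 3054 and 44056 at Days 8, 10 and 13, and 5056 at Day 15, with 8446 in iPSCs and 5513 in ESCs. At Day 15 none of the 16 was at 0, with Ptprc at 4.56, Spi1 at 6.20 and Mpeg1 at 8.00. Their part in the cytokine, protease and matrix values was not tested.

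Immediate early genes, the first targets of growth factor signalling, were lower in 8 of 18, between 1 and 2 lower in 3, within 1 in 6 and higher in 1. Their median difference from Day 2 was -0.13, -0.66 and -0.98 at Days 8, 10 and 13, and -1.85 at Day 15. Egr1 was at 13.19 at Day 2, 13.46, 13.47 and 12.61 at Days 8, 10 and 13, and 10.77 at Day 15, and Myc at 13.13 at Day 2, 12.77, 12.44 and 11.57 at Days 8, 10 and 13, and 10.51 at Day 15, beside 10.68 in iPSCs and 11.27 in ESCs; these were 5.35-fold lower (5.14 to 5.57) and 6.12-fold lower (5.86 to 6.40) at Day 15. Klf6 and Ier3 were 4.92-fold lower (4.75 to 5.08) and 5.90-fold lower (5.55 to 6.27). Ier2 (12.44 at Day 2 and 12.66 at Day 15), Klf10 (11.56 at Day 2 and 11.99 at Day 15), and the phosphatases Dusp1 (12.10 at Day 2 and 11.76 at Day 15) and Dusp6 (11.89 at Day 2 and 11.33 at Day 15) were within 1. Atf3, a stress gene, was at 5.55 at Day 2, 8.91, 10.99 and 9.65 at Days 8, 10 and 13, and 8.06 at Day 15, 5.80-fold higher (4.33 to 7.94).

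Surface and adhesion genes of fibroblasts were lower in 18 of 30, between 1 and 2 lower in 5, within 1 in 5, between 1 and 2 higher in 1 and higher in 1. Thy1, a fibroblast surface marker, was at 10.38 at Day 2, 3.81, 6.37 and 7.62 at Days 8, 10 and 13, and 7.36 at Day 15 and 8.14-fold lower (7.16 to 9.29). Cav1, the coat protein of caveolae, was at 15.11 at Day 2, 10.06, 9.48 and 9.29 at Days 8, 10 and 13, and 6.91 at Day 15, beside 8.12 in iPSCs and 6.73 in ESCs, and its partner Cavin1 was 22.4-fold lower (21.8 to 23.0). The fibronectin receptor chains Itga5 and Itgb1 were 32.3-fold lower (31.2 to 33.4) and 11.2-fold lower (10.95 to 11.4). Within 1 were Itga1 (8.59 at Day 2, 9.77, 6.10 and 0 at Days 8, 10 and 13, and 8.75 at Day 15), Itga6 (10.24 at Day 2 and 10.21 at Day 15), Itga9 (7.39 at Day 2 and 7.90 at Day 15), Nt5e (9.69 at Day 2 and 9.97 at Day 15) and Ly6c1 (7.76 at Day 2 and 8.35 at Day 15), and Itga7 had 1 read at Day 2 and 185 at Day 15. The median difference of the list from Day 2 was -2.26, -3.06 and -3.33 at Days 8, 10 and 13, and -2.95 at Day 15.

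Day 2 genes within 1 at Day 15 were divided by their course. A gene was counted as remained when it was never 2 or more below Day 2 at Days 8, 10 and 13, and as returned when it was in at least 1 of them. Of the 6761 genes, 5603 had remained, 47.4% of all Day 2 genes, and 1158 had returned, 9.8%. All these counts share the Day 2 library, and most returns rest on Day 8: 1009 of the 1158 were 2 or more lower there, 748 at Day 8 alone, and 352 of the 748 had no read in that library. When a low value at Day 10 or 13 was required, 410 genes had returned, 294 were low in at least 2 of the 3 libraries and 91 in all 3. Of the 428 Day 2 genes in the 5 areas, 41 had remained (9.58%) and 50 had returned (11.7%), 39 of these with a low value at Day 10 or 13. By the first definition the share that returned was thus near the 9.8% of all Day 2 genes. With a low value required at Day 10 or 13 it was larger, 39 of 428 beside 410 of 11821 Day 2 genes. More of the listed genes were low in the first place. At Day 10, 305 of the 462 kept were 2 or more below Day 2, beside 2049 of all 14470 genes kept. At most 39 of these 305 returned, beside 344 of the 1952 Day 2 genes low at Day 10. The larger share thus does not show that low genes of the lists returned more often.

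Highest at Day 2 among the returned genes were Cnn3, Prdx6, Maged1, Sgk1, Ass1, Prdx4, Myh10, Slc38a2, Dag1 and Igfbp4. Cnn3, an acidic calponin, was at 14.97 at Day 2, 11.25, 13.15 and 13.69 at Days 8, 10 and 13, and 13.98 at Day 15, and Prdx6, a peroxide-reducing enzyme, at 14.72 at Day 2, 12.41, 13.81 and 14.38 at Days 8, 10 and 13, and 14.87 at Day 15. Sgk1, a kinase downstream of insulin and growth factors, was at 13.45 at Day 2, 10.01, 11.49 and 11.99 at Days 8, 10 and 13, and 12.77 at Day 15, and the arginine synthesis enzyme Ass1 at 13.33 at Day 2, 9.79, 11.20 and 12.44 at Days 8, 10 and 13, and 12.44 at Day 15. Of these 10, Igfbp4 was the only one at least 2 above both iPSCs and ESCs at Day 2. The other 9 were thus also present in pluripotent cells, for example Sgk1 at 13.74 in iPSCs and 13.00 in ESCs. Prdx6, Cnn3, Sgk1, Prdx4, Slc38a2 and Dag1 were low at Day 8 alone.

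Among the 1989 Day 2 genes above both pluripotent libraries, 84 had remained and 167 had returned, 139 of the latter with a low value at Day 10 or 13. Highest at Day 2 among the 251 were H1f0, P4ha1, Cd24a, Dpysl2, Igfbp4, Fabp5, Xist, Fst, Ptx3 and Tgm2. The linker histone H1f0 of non-dividing cells held at 12.80 at Day 2, 12.98, 12.67 and 12.46 at Days 8, 10 and 13, and 12.52 at Day 15, beside 10.70 in iPSCs and 9.48 in ESCs. Cd24a, a surface glycoprotein, was at 12.72 at Day 2, 13.72, 13.55 and 12.78 at Days 8, 10 and 13, and 12.83 at Day 15, beside 9.69 in iPSCs and 10.17 in ESCs. Xist, the RNA that coats the inactive X chromosome of female cells, was at 12.23 at Day 2, 12.78, 12.10 and 12.13 at Days 8, 10 and 13, and 13.01 at Day 15, beside 9.87 in iPSCs and 9.96 in ESCs. In the Day 15 library it was 1.72-fold higher (1.67 to 1.78) than at Day 2. Ptx3, a pentraxin secreted by stromal cells, was at 11.83 at Day 2, 9.44, 6.97 and 8.57 at Days 8, 10 and 13, and 11.48 at Day 15, with no read in iPSCs or ESCs, and ended at 78.6% of Day 2. Dpysl2, a cytoskeletal adaptor, was at 12.63 at Day 2 and 11.99 at Day 15 and the fatty acid binding protein Fabp5 at 12.24 at Day 2 and 11.37 at Day 15. The 251 genes became 113 when within was narrowed to 0.5, and 159 with a filter of 8.

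**Figure D5:**
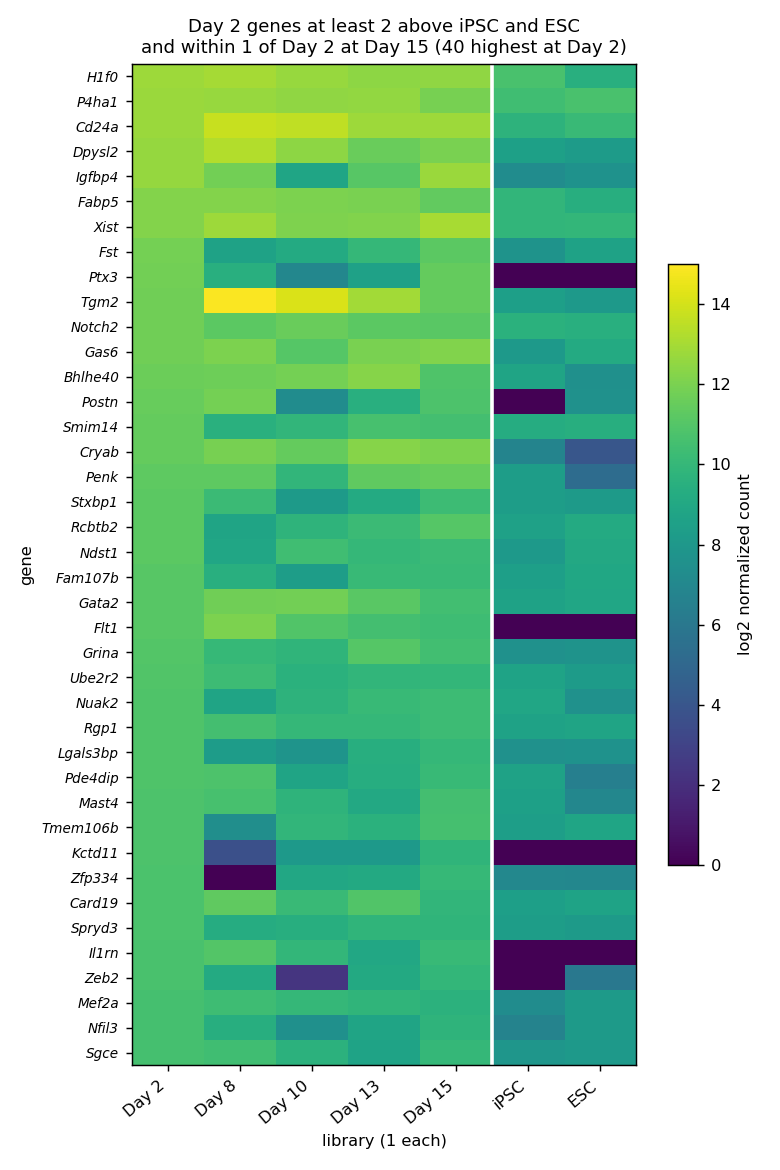
Log2 normalized counts (colour) in the 7 libraries (columns, 1 each) of the 40 genes with the highest Day 2 values (rows, highest at the top) among the 251 that were at least 2 above iPSCs and ESCs at Day 2 and within 1 at Day 15. H1f0, P4ha1 and Fabp5 differ by less than 1 from Day 2 throughout the course, while Igfbp4, Ptx3, Postn and Zeb2 have their darkest cell of the course at Day 10.

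Among the 10 genes with the deepest differences, with zeros set to 3 reads, were Inhba, Ppbp, Gpr176, Foxs1, Plau, Rhoj, Hspb6, Rtl3 and Ereg. Inhba, Ppbp, Plau and Ereg are described above. Gpr176, an orphan receptor, had 6050 reads at Day 2 and none at Day 15, and Foxs1, a forkhead factor, 5921 and none. Rtl3 had 3416 and none, Rhoj, a small GTPase, 4206 and 3, and the small heat shock protein Hspb6 2062 and 1. At the other end, Dppa5a, Trh, Bex1, Utf1, Nanog, Pou5f1, Zfp42, Tdgf1, Sall4 and Epcam had the largest positive differences. Dppa5a was at 0 at Day 2, 9.97, 15.29 and 16.14 at Days 8, 10 and 13, and 16.50 at Day 15, and Trh, the thyrotropin-releasing hormone gene, at 0 at Day 2, 8.40, 12.98 and 14.12 at Days 8, 10 and 13, and 14.44 at Day 15.

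Markers of other cell types differed between the libraries as well. Endothelial markers in the table summed to 2308 normalized counts at Day 2 and 3785 at Day 15, of which Pecam1, also a pluripotent cell gene, was at 10.84 beside 12.00 in iPSCs and 11.70 in ESCs; Cdh5 had no read in either. Epidermal markers summed to 1660 and 5444, with Krt14 at 4.20 at Day 2, 9.75, 10.57 and 11.29 at Days 8, 10 and 13, and 10.68 at Day 15 and Krt5 not found in the table by its symbol. Primitive endoderm markers, with Lama1 and Pdgfra shared with other lists, summed to 3027 and 3958, with Sox17 at 0 at Day 2, 0, 0 and 7.26 at Days 8, 10 and 13, and 9.90 at Day 15 and Foxa2 at 9.14 at Day 15 and without a read at Day 2. Trophoblast markers summed to 1121 and 6744, with Cdx2, Eomes and Elf5 at 8.06, 8.36 and 7.88 at Day 15. Skeletal and cardiac muscle markers summed to 268 and 3539, most of it Mylpf, at 11.28 beside 12.45 in iPSCs and 12.67 in ESCs, with Ckm at 0 in both. Neural markers summed to 2488 and 2420. The part of such cells in the differences was not tested.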

How the data were processed

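RNA of 7 libraries, 1 per group, was sequenced from unstranded Nextera XT libraries made from 500 pg RNA each, per the labels. The submitters' processing notes name FastQC, the aligner STAR (2.5.3a), the counter featureCounts and the build mm10 (GRCm38.p5). The values deposited by the authors are log2 of the read count divided by a size factor, plus 1. Whole reads were recovered from them: 100% of the values came out within 0.01 of a whole number, and these read numbers carry the intervals and floors. How the authors set the size factors is not stated in the labels or the file.

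Day 15 minus Day 2 was taken per gene on the deposited log2 scale, for genes with the higher value at least 6. With 1 library per group no test was run; intervals and floors cover counting error only, and PCR copies are not independent molecules. Python 3.11.15, numpy 2.4.6, pandas 2.3.3 and scipy 1.17.1 were used, figures were drawn with matplotlib 3.10.9, and positions come from GENCODE M21 (GRCm38) for 23436 symbols with 1 position. The scripts were tested on simulated data. Unstranded counts do not separate genes from antisense partners, and near-identical copies such as the actin and tropomyosin genes may share reads.

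The comparison, the gene lists and the limits were chosen with earlier results of these data known. In each list the 4 lower and the 4 within genes with the highest Day 2 value and all higher genes are named, with all kept positional genes eligible. A few reference genes were named whatever their values, and the 10 most extreme genes of each class are given; a few genes that these rules choose are not reported here. Col3a1, Col11a1, Mkl1, Zeb1, Tbx3, Tead4, Itga9, the genes at 0 or not kept, and the genes in the closing paragraphs were named after their values were seen. Alternatives were another filter, none, reads required in both libraries, a larger pseudocount, total-read and trimmed-mean scaling, Day 13 in place of Day 15, stricter limits, stricter definitions of a return, and, added after the data were seen, leaving out genes missing from the Day 2 or Day 8 library. Promoter motifs were not analysed here.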

Additional observations from a re-analysis of the deposited data

How the results depend on the processing

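Of 97 recomputed values under 12 alternatives, 79 stayed within a margin and 18 moved further. The margin was 1.5 times for gene counts and the 95% binomial rank interval of the median for the medians of the 5 areas. Counts of lower genes and of lower Day 2 genes were the same values in each setting, and both enter the 97. Gene counts have no sign to change, and no area median changed sign. Among medians of single lists, those of the Wnt genes and the Hox cofactors did, as given in the report. With reads required in both libraries the Hox median was -2.38 in place of -4.04 and that of the mesenchymal and regional factors -1.58 in place of -3.12. The genes higher at Day 15 numbered 2899, and 1414 with a filter at 8, 6627 with no filter and 1166 with reads required in both libraries. With limits of 3 for lower and 0.5 for within, 909 genes were lower, all of them Day 2 genes, and 3926 were within, 3912 of them Day 2 genes. The 251 Day 2 genes above both pluripotent libraries and within 1 became 159 with a filter at 8, 385 with no filter and 113 with the stricter limits. The 1158 returned genes became 752 with a filter at 8, 410 with a low value required at Day 10 or 13, and 294 with one required in at least 2 libraries. The positional median of -3.16 became -1.77 with reads in both libraries and -4.24 with Day 13 in place of Day 15, and the matrix median became -3.55 with Day 13. Total-read scaling gave a contractile median of -2.0 and a signalling median of -0.64, after a shift of the median gene by 0.45. Leaving out the 266 genes missing from the Day 2 or Day 8 library kept each of the 7 gene counts recomputed within 1.5 times, and area medians were not part of that alternative. No paired analysis was possible because each group holds 1 library and no test was run, and for the same reason no library could be left out. Depth limits genes near the floor of 3 reads, which is 2.74 normalized counts at Day 2 and 1.74 at Day 15.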

Other observations

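A few Day 2 genes were at least 2 above both pluripotent libraries at Day 2 and yet higher at Day 15, 10 of 1989. They were read after their values were seen. Lumican belongs to them, and so do Dpt, a matrix protein of dermis, at 6.08 at Day 2, 9.98, 6.90 and 7.89 at Days 8, 10 and 13, and 8.34 at Day 15, and Angpt1, a ligand of the endothelial receptor Tie2, at 6.47 at Day 2, 5.71, 4.18 and 0 at Days 8, 10 and 13, and 8.77 at Day 15. Both had no read in iPSCs or ESCs. Lgr5, an R-spondin receptor and stem cell marker of epithelia, was at 6.44 at Day 2, 0, 0.83 and 7.84 at Days 8, 10 and 13, and 9.29 at Day 15, so it was present in the Day 13 and Day 15 libraries after a gap at Days 8 and 10. Krt16, a stress keratin of epidermis, was at 6.43 at Day 2, 12.32, 12.08 and 12.24 at Days 8, 10 and 13, and 10.06 at Day 15, and Psca at 6.18 at Day 2, 7.78, 9.31 and 9.48 at Days 8, 10 and 13, and 9.31 at Day 15. Both were above their Day 2 level from Day 8 on.

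Other genes of this class were near their Day 2 level in most libraries of the course while the pluripotent libraries were low. Flt1, a VEGF receptor, was at 11.08 at Day 2, 12.03, 10.94 and 10.52 at Days 8, 10 and 13, and 10.35 at Day 15, with no read in iPSCs or ESCs. Cryab, a small heat shock protein, was at 11.45 at Day 2, 11.90, 11.47 and 12.29 at Days 8, 10 and 13, and 12.06 at Day 15, beside 6.77 in iPSCs and 4.01 in ESCs. Penk, the enkephalin precursor, was at 11.28 at Day 2, 11.25, 9.90 and 11.35 at Days 8, 10 and 13, and 11.49 at Day 15, and Il1rn, the interleukin 1 receptor antagonist, at 10.72 at Day 2, 11.01, 9.94 and 9.01 at Days 8, 10 and 13, and 10.08 at Day 15. Gata2 was at 11.12 at Day 2, 11.74, 11.78 and 11.17 at Days 8, 10 and 13, and 10.47 at Day 15, beside 8.66 in iPSCs and 8.88 in ESCs. Neither the matrix nor the contractile list holds these genes, and the libraries do not show in which cells they were expressed.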
